A study of Mus musculus with 92 samples.

Results

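The data described here are the gene expression profiles of mouse tibialis anterior (TA) muscle 14 days after a freeze injury, compared with the uninjured TA of the opposite leg. They were chosen by label and time as the libraries of the mice numbered 1 to 5 at 14 days, which gave 5 injured and 5 control libraries, 10 of the 80 libraries in the gene table. All mice were male C57BL/6J of 10 weeks. The TA, which lies along the shin and lifts the foot, was exposed on the left through a skin incision and touched with a steel probe cooled on dry ice, and the TA of the right leg of the same mouse served as the control. Strand-specific libraries of polyadenylated RNA were sequenced, and expression is given in FPKM, the fragments of a gene scaled to the length of its transcript and to all mapped fragments of the library. Both legs come from 1 mouse, so a response of the whole animal would be present in the control as well. The labels name no transgene, drug or other agent in either leg.

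After a freeze injury the fibers under the probe die, neutrophils and then monocytes enter, and macrophages clear the debris. Satellite cells, the stem cells of muscle that lie under the basement membrane, divide, become myoblasts and fuse into new fibers, which first make embryonic and cardiac-type isoforms of the contractile proteins and later replace them with adult ones. Fibroblasts and fibro-adipogenic progenitors lay down collagen meanwhile, and much of it is removed again as the fibers mature. After that phase inflammation recedes and the new fibers, often with central nuclei, grow.

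All 10 libraries held the profile of skeletal muscle. The 8 fiber markers looked up summed to between 47905 and 63289 FPKM in the controls and between 49693 and 77767 FPKM in the injured muscles, although Acta1, skeletal alpha-actin, was listed at 0 in both legs of animal 5. Between 8924 and 9433 genes stood above 1 FPKM in the controls. The injured muscles of animals 1 and 2 held 9185 and 9211 such genes, within that range, and those of animals 3, 4 and 5 held 10537, 10318 and 10593, above it. The read depth of single libraries is not known, since FPKM are already scaled to it. The study's methods describe omitting tissues with low RNA integrity and state fewer tissues at this time than the gene table holds. Which of the libraries that concerns is not given in the sources used here, so all 5 mice are used.

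Genes called at 14 days were nearly all higher in injured muscle, among them macrophage, matrix, imprinted growth and developmental sarcomere genes, and 3 of the 5 injured muscles carried most of that difference. Of 10192 genes with a mean of at least 1 FPKM in either group, 162 (1.59%) were called higher and 2 (0.0196%) lower in injured muscle, with a Benjamini-Hochberg adjusted p under 0.05 and a minimum of 2-fold by limma on log2(FPKM + 0.1). The test takes the spread of each gene from 76 libraries in 18 groups of all time points. With the animal as a block, since the legs are paired, 445 genes (4.37%) were called higher and 6 (0.0589%) lower. With the spread taken from the 10 libraries alone no gene was called, with or without the block, and the lowest adjusted p was 0.13 with it and 0.169 without it by limma, although 3058 and 2096 genes had an unadjusted p under 0.05.

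The number of calls depended on single injured muscles. Without the injured library of animal 1 or of animal 2, 680 and 787 genes were called, and without that of animal 3, 4 or 5, 16, 10 and 20. Leaving out the control library of animals 1 to 5 in turn gave 75, 57, 62, 42 and 111 calls. The fit also leaves out an incomplete injured library of 7 days, and with it kept 7 genes were called. Among the genes named here, E2f2, Mdfi, H19, Mest, Krt8 and Prnd were called in each of these 10 fits. Each of the other called genes named below lost its call in at least 1 of them. The genes named follow a rule on size and level, except Emr1, Myh3, Myh8, Chrng, Pax7, Sln, Krt8, Krt18, Ccl5, Gm7325, Igf2, Meg3, Cdkn1c, Peg3, Mki67, Top2a, Cd3g, Mpo, Prnd, Thrsp, Apln, Aplnr, Nrep and the genes that differed in every mouse other than E2f2, 2410137F16Rik, 2610524H06Rik and 1700001O22Rik, which were chosen after their values were seen. In these samples of whole muscle, fewer cells of a type and less RNA per cell cannot be told apart.

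The plot of genes by animal shows how far the 5 mice differed. Taking the left leg minus the right leg of each mouse, 131 (1.29%), 55 (0.54%), 1273 (12.5%), 1523 (14.9%) and 1291 (12.7%) of the genes tested were at least 2-fold higher in the injured muscle of animals 1 to 5. At least 2-fold lower were 228 (2.24%), 45 (0.442%), 43 (0.422%), 56 (0.549%) and 71 (0.697%). Animals 3, 4 and 5 thus had about the same number of higher genes, animal 2 had few in either direction, and animal 1 was the mouse with more lower than higher genes. The genes also overlapped, as 913 (8.96%) were at least 2-fold higher in animals 3, 4 and 5 and in neither of the others. A further 62 (0.608%) were higher in animals 1, 3, 4 and 5 and not in animal 2, and 2 (0.0196%) in all 5. In each of the 5 mice 1 gene (0.00981%) was at least 2-fold lower.

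**Figure D1:**
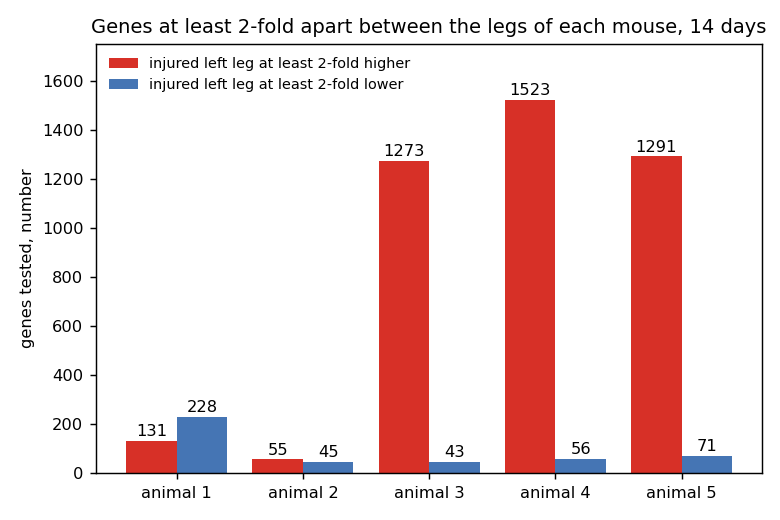
Number of genes at least 2-fold higher or lower in the injured left TA than in the uninjured right TA of the same mouse at 14 days, one pair of bars per animal, of 10192 genes tested. Animals 3, 4 and 5 have 1273, 1523 and 1291 higher genes, and animals 1 and 2 have 131 and 55.

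The profiles of the differences gave the same picture. Across the 10192 genes, the left minus right differences of animals 3, 4 and 5 correlated with each other at a Pearson r of 0.816 to 0.828. The difference of animal 1 correlated with theirs at 0.065, 0.066 and 0.176, that of animal 2 at -0.022, -0.053 and -0.059, and those of animals 1 and 2 with each other at -0.201. Genes are the points of these correlations and are no independent replicates, and the points share the libraries of a mouse.

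Set against the mean difference of 7 days, when 3 injured and 4 control muscles were compared, the differences of animals 3, 4 and 5 at 14 days correlated at 0.824, 0.783 and 0.793, that of animal 1 at 0.201 and that of animal 2 at -0.097. For 72 h the values of animals 1 to 5 were 0.036, 0.001, 0.732, 0.704 and 0.677. For 21 days they were 0.276, 0.017, 0.682, 0.63 and 0.679, and for 28 days 0.219, -0.066, 0.765, 0.713 and 0.712. Over the 8 other time points r did not exceed 0.082 for animal 2 and 0.276 for animal 1, and it was at least 0.399 for animals 3, 4 and 5. By Spearman's rank correlation animal 1 had 0.382 at 21 days and 0.324 at 28 days, and animal 2 had -0.037 and -0.052. Nothing in the labels separates animals 1 and 2 from animals 3, 4 and 5, and whether the injury, the healing or the sampling of the tissue differed was not tested.

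**Figure D2:**
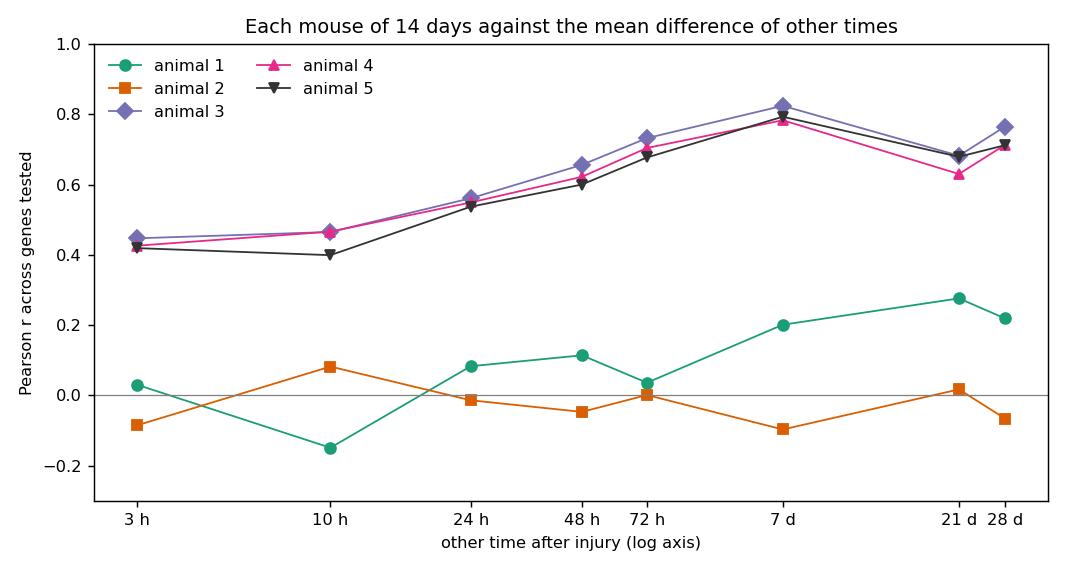
Pearson r, across 10192 genes, between the injured minus control difference of each mouse at 14 days and the mean difference at each other time point, plotted against time on a log axis, one line per animal. The lines of animals 3, 4 and 5 run together and reach 0.824, 0.783 and 0.793 at 7 days, and those of animals 1 and 2 stay low.

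Macrophage genes differed by much in animals 3, 4 and 5 and passed the test narrowly, since Lyz2, Cd68 and Emr1 were each called in 2 of the 10 fits that leave out a library. Lyz2, which encodes the lysozyme of macrophages and other myeloid cells (chromosome 10, 116714597 to 116719328 in mm9), stood in the controls of animals 1 to 5 at 14.5, 9.31, 12.5, 12.1 and 19.4 FPKM and in their injured muscles at 12.7, 14.1, 273, 197 and 172 FPKM. The injured muscles of animals 3, 4 and 5 were high and those of animals 1 and 2 lay within the range of the controls. Lyz2 rose by a log2 difference of 2.40 (standard error, SE, 0.67, adjusted p = 0.0447 by limma). Cd68, a lysosomal glycoprotein of macrophages, rose by 2.35 (SE 0.67, adjusted p = 0.0477), with 0.339 to 0.648 FPKM in the controls and 1.39, 0.529, 6.41, 6.30 and 3.95 FPKM in the injured muscles. For Cd68 animal 1 was above all controls too. Emr1, the F4/80 antigen used to stain mouse macrophages, rose by 2.22 (SE 0.61, adjusted p = 0.0403), from 0.139 to 0.347 FPKM in the controls to 4.66, 3.43 and 3.37 FPKM in animals 3, 4 and 5, with 0.247 and 0.277 FPKM in animals 1 and 2.

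Of the 7 macrophage markers tested, of 9 in the list, 3 were called higher, and all 7 with the animal as a block. Their median log2 difference was 2.22, where the median of all genes tested was 0.14. The markers tested summed to 16 to 29.5 FPKM in the controls and to 19, 22.5, 382, 285 and 257 FPKM in the injured muscles, so that animals 1 and 2 did not leave the control range. C1qb, a chain of the complement starter C1q, was not called (log2 difference 2.28, adjusted p = 0.062, and 0.0155 with the block), with 2.32 to 3.77 FPKM in the controls and 2.22, 3.32, 52.2, 40.8 and 42.1 FPKM in the injured muscles.

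The genes of complement C1q, phagocytic receptors and lysosomes moved unevenly. Of 17 tested, 3 were called higher and 13 with the block, with a median log2 difference of 2.0. Ctss, the cathepsin S that antigen-presenting cells use to process MHC class II, rose from 1.23 to 1.80 FPKM in the controls to 1.88, 1.57, 44.7, 28.0 and 25.0 FPKM in the injured muscles (log2 difference 2.66, SE 0.68, adjusted p = 0.0258). Trem2, a lipid-sensing receptor of macrophages, rose from 0.0547 to 0.184 FPKM to 7.47, 4.37 and 4.28 FPKM in animals 3, 4 and 5 (log2 difference 2.71, SE 0.72, adjusted p = 0.0326), with 0.057 and 0.151 FPKM in animals 1 and 2. The lysosomal protease Ctsd, which muscle fibers make as well, had the highest mean level of the list and lay at 234 to 321 FPKM in the controls and 240 to 293 FPKM in the injured muscles (log2 difference -0.08, SE 0.22, adjusted p = 0.93).

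Antigen presentation was higher in the same 3 muscles. H2-Aa and H2-Eb1 encode an alpha and a beta chain of MHC class II, which shows peptides to helper T cells. H2-Aa stood at 7.22, 7.32, 8.85, 7.59 and 11.1 FPKM in the controls and at 10.6, 7.11, 115, 90.8 and 103 FPKM in the injured muscles, so animals 1 and 2 overlapped the controls and the others did not. It rose by a log2 difference of 2.19 (SE 0.61, adjusted p = 0.0457). H2-Eb1 rose by 2.11 (SE 0.58, adjusted p = 0.0418), to 47.8, 41.8 and 48.5 FPKM in animals 3, 4 and 5. Of the 6 class II genes tested, 2 were called, and 5 with the block, and H2-Ab1, the third chain, missed the threshold (log2 difference 2.03, adjusted p = 0.06, and 0.0129 with the block).

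Over all genes tested, 181 (1.78%) had all 5 injured muscles above all 5 controls and 25 (0.245%) had all 5 below. Among the 162 genes called higher, 20 were of that kind, several of them genes of myeloid cells. Cd84, an adhesion receptor of leukocytes, lay at 0.0387 to 0.0985 FPKM in the controls and at 0.138, 0.108, 2.65, 1.87 and 1.40 FPKM in the injured muscles (log2 difference 2.31, SE 0.56, adjusted p = 0.0193). Clec4a1, a C-type lectin of myeloid cells, lay at 0.107 to 0.160 FPKM and at 0.186, 0.246, 2.53, 2.12 and 2.34 FPKM (log2 difference 2.16, SE 0.55, adjusted p = 0.0263). For both, the injured muscles of animals 1 and 2 were above the controls by a small step and those of the other animals by a large one. Selplg, the leukocyte ligand of P-selectin, and P2ry6, a receptor for UDP found on phagocytes, were called and did not overlap either, with log2 differences of 2.05 (adjusted p = 0.0447) and 1.40 (adjusted p = 0.0488).

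Genes of other leukocytes were lower in level. Nkg7, a granule protein of cytotoxic T cells and NK cells and the only lymphocyte marker tested of 10, was listed at 0 in 4 controls and at 0.0689 FPKM in that of animal 1, and at 0.167, 0, 1.65, 1.65 and 3.41 FPKM in the injured muscles. It was called higher (log2 difference 2.81, SE 0.64, adjusted p = 0.0128), a size that depends on the added 0.1. Of the 10 lymphocyte markers, 3, 0, 8, 9 and 8 were above all controls in animals 1 to 5. Among those too low for the test, Cd3g, a chain of the T cell receptor complex, stood at 0 to 0.0593 FPKM in the controls and at 0.155, 0, 0.506, 0.852 and 0.975 FPKM in the injured muscles. Of the neutrophil markers only S100a8 reached the minimum level, and it was not called. The neutrophil granule gene Mpo was listed at 0 in all 10 libraries. Of the 6 neutrophil markers in the table, 2, 0, 3, 4 and 3 were above all controls in animals 1 to 5, and 1, 1, 1, 0 and 0 below. Among cytokine genes 3 of 14 were tested and none was called, and 2 were called with the block. Ccl8, a chemokine that draws monocytes, lay at 0.0822 to 0.549 FPKM in the controls and at 0.595, 0.374, 12.4, 7.59 and 9.27 FPKM in the injured muscles (log2 difference 2.75, adjusted p = 0.0543, and 0.011 with the block). Ccl5, a T cell chemokine outside that list, was called higher, with 0 to 0.257 FPKM in the controls and 0.557, 0, 5.76, 5.52 and 12.7 FPKM in the injured muscles (log2 difference 3.23, SE 0.77, adjusted p = 0.0175). Of 12 interferon-stimulated genes tested none was called either way, and their highest difference was that of Irf7, a regulator of interferon genes (log2 difference 1.27, adjusted p = 0.177). Irf7 lay at 0.740 to 0.918 FPKM in the controls and at 1.05, 0.835, 4.15, 3.27 and 4.16 FPKM in the injured muscles. Of the 14 members in the table, 5, 0, 14, 14 and 14 were above all controls in animals 1 to 5, and 0, 5, 0, 0 and 0 below. Over all genes tested, 19.6%, 14.1%, 47.7%, 46.1% and 59% were above all controls. The share below all controls was not counted for single animals.

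The plot of 12 genes by leg shows these patterns beside those of the matrix and the fiber.

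**Figure D3:**
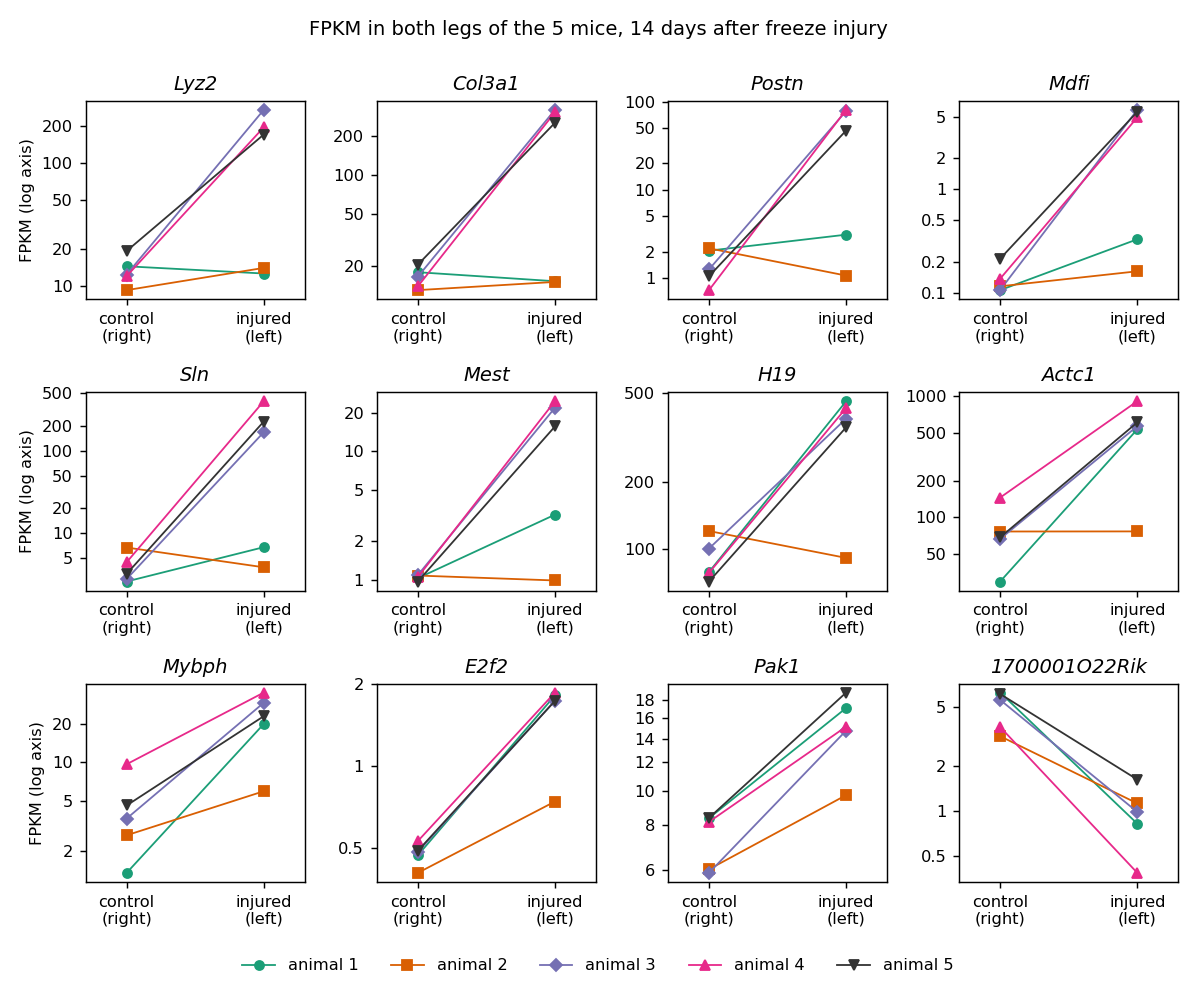
FPKM (log axis) of 12 genes in the uninjured right and injured left TA at 14 days, one line per animal. For Lyz2, Col3a1, Postn and Mdfi the lines of animals 3, 4 and 5 climb and those of animals 1 and 2 stay near level, for H19 and Actc1 animal 1 climbs too, and for 1700001O22Rik all 5 lines fall.

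Collagen and matrix genes were higher in the same muscles. Col3a1 and Col1a1 encode chains of the fibrillar collagens III and I that fill the space between regenerating fibers. Col3a1 (chromosome 1, 45368383 to 45406551 in mm9) stood at 18, 13.1, 16.6, 14 and 20.6 FPKM in the controls and at 15.3, 15.2, 319, 305 and 253 FPKM in the injured muscles. Animals 1 and 2 lay inside the range of the controls, and animals 3, 4 and 5 far above it. Col3a1 rose by a log2 difference of 2.46 (SE 0.59, adjusted p = 0.0179 by limma). Col1a1 had 2.87, 4.83, 68.1, 75.8 and 77.2 FPKM in the injured muscles beside 3.14 to 9.99 FPKM in the controls and was not called (log2 difference 2.05, SE 0.70, adjusted p = 0.103, and 0.0327 with the block). In animal 1 its injured muscle was below every control.

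Of the 12 fibrillar and associated collagen genes tested, 4 were called higher, and all 12 with the block, with a median log2 difference of 1.64. The medians of the 5 animals were -0.53, 0.25, 2.67, 3.13 and 2.72. None of the 14 members in the table was above all controls in animal 1 or animal 2, whereas 13, 14 and 14 were in animals 3, 4 and 5. Over all genes tested, the injured muscle of animals 1 to 5 was above all 5 controls for 2002 (19.6%), 1433 (14.1%), 4857 (47.7%), 4698 (46.1%) and 6014 (59%) genes.

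Postn, which encodes periostin, a matricellular protein of healing tissue, had the largest rise of its list. It stood at 2.05, 2.18, 1.26, 0.731 and 1.05 FPKM in the controls and at 3.11, 1.07, 78.4, 80.9 and 47.1 FPKM in the injured muscles (log2 difference 3.49, SE 0.69, adjusted p = 0.00324). Animal 1 was above the controls by little and animal 2 within them. Mmp14, a membrane-bound collagenase, rose from 1.52 to 2.24 FPKM in the controls to 16.1, 17.4 and 18.1 FPKM in animals 3, 4 and 5 (log2 difference 1.93, SE 0.49, adjusted p = 0.025), with 1.36 and 2.14 FPKM in animals 1 and 2. Timp1, an inhibitor of such proteases, rose with it (log2 difference 2.32, SE 0.66, adjusted p = 0.0488). Of 24 genes of matricellular proteins, crosslinking and remodelling enzymes tested, 4 were called higher, and 13 with the block. Dcn, the small proteoglycan decorin, had the highest mean level and was not called (log2 difference 0.65, adjusted p = 0.635). In animal 1 it stood at 55.1 FPKM, below all controls, and in animals 3, 4 and 5 at 429, 301 and 487 FPKM, above all of them.

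The basement membrane, the sheet of collagen IV, laminin and nidogen around each fiber and vessel, was the matrix list whose median difference was not lower at 14 than at 7 days. Col4a1, a chain of collagen IV, stood at 8.11, 8.96, 12.9, 11.2 and 8.94 FPKM in the controls and at 11.5, 7.64, 42.2, 44.4 and 46.2 FPKM in the injured muscles (log2 difference 1.26, SE 0.36, adjusted p = 0.0469). Nid2, Lamb1 and Col18a1, which encode nidogen 2, a laminin beta chain and the precursor of endostatin, rose by log2 differences of 1.41, 1.38 and 1.44 (adjusted p = 0.0263, 0.0447 and 0.0452). In animals 1 and 2 the 14 members had median differences of 0.02 and -0.01, and in animals 3, 4 and 5 of 1.49, 2.01 and 1.87. Of the 14, 4 were called higher, and 7 with the block.

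Markers of the cells that make or border this matrix moved beside it. Cd34, an antigen of fibro-adipogenic progenitors and of endothelium, rose from 11 to 16.1 FPKM in the controls to 21.3, 13.1, 51.4, 48.7 and 53.3 FPKM (log2 difference 1.34, SE 0.36, adjusted p = 0.0328). It was the 1 called gene of 8 fibroblast markers, of which 4 were called with the block. The 8 summed to 177 to 308 FPKM in the controls and to 124, 237, 792, 615 and 824 FPKM in the injured muscles, so animal 1 was below the controls. No marker of endothelium, pericytes, adipocytes, Schwann cells, tendon, skin or erythroid cells was called, with 7, 6, 5, 2, 4, 1 and 1 tested. Of 8 endothelial markers in the table, 3, 0, 8, 6 and 6 were above all controls in animals 1 to 5, and 2, 6, 0, 0 and 0 below. Of 7 pericyte markers, 0, 0, 6, 6 and 6 were above and 4, 4, 0, 0 and 0 below. Over all genes tested, 19.6%, 14.1%, 47.7%, 46.1% and 59% were above. The adipocyte hormone gene Adipoq ranged from 0.203 to 3.58 FPKM in the controls and stood at 0.663, 0.456, 12, 6.25 and 9.30 FPKM in the injured muscles (log2 difference 1.49, adjusted p = 0.49). The tendon genes varied widely among the control legs themselves. Fmod, fibromodulin, ran from 0.289 to 19.6 FPKM in the controls and from 1.57 FPKM in animal 1 to 65.0 FPKM in animal 5 in the injured muscles (log2 difference 1.24, adjusted p = 0.716). Tnmd, tenomodulin, ran from 0.167 to 8.02 FPKM and from 1.98 to 42.8 FPKM (log2 difference 2.03, adjusted p = 0.311). The part of tendon and fat in the matrix differences was not tested.

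Of 10 developmental and stretch-responsive sarcomere genes tested, which newly formed fibers use, 4 were called higher, with and without the block, and in 3 of these 4 animal 1 was above the controls too. Actc1, the cardiac alpha-actin of fetal and regenerating muscle (chromosome 2, 113873025 to 113878547 in mm9), stood at 29.6, 76.6, 66.5, 146 and 68.6 FPKM in the controls and at 535, 76.7, 568, 913 and 610 FPKM in the injured muscles. The injured muscles of animals 1, 3, 4 and 5 were above every control, and animal 2 was at its own control level. Actc1 rose by a log2 difference of 2.61 (SE 0.68, adjusted p = 0.0292). Myl4, the embryonic and atrial myosin light chain, did not follow it in animal 1. It stood at 2.35 to 8.77 FPKM in the controls and at 7.56, 7.24, 53.5, 64.8 and 33.6 FPKM in the injured muscles (log2 difference 2.06, SE 0.47, adjusted p = 0.0134).

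Ankrd1, a stretch-responsive protein that binds titin, rose from 1.84 to 9.98 FPKM in the controls to 19.99, 4.0, 46.2, 34.4 and 33.8 FPKM (log2 difference 2.07, SE 0.57, adjusted p = 0.0447), with animal 1 again above the controls. Myh3, the embryonic myosin heavy chain that marks fibers in their first days, stood at 0.120 to 0.331 FPKM in the controls and at 0.665, 0.250, 1.92, 1.83 and 0.739 FPKM in the injured muscles. It rose by a log2 difference of 1.75 (SE 0.41, adjusted p = 0.0158) and remained a low transcript. Myh8, the perinatal myosin, stood at 11.3 to 18.1 FPKM in the controls and 9.99 to 15.2 FPKM in the injured muscles (log2 difference -0.10, adjusted p = 0.956). Myh3 and Myh8 share sequence with the other myosin genes of their cluster, so their FPKM are uncertain to that degree.

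A few further genes had the largest differences among the called genes named here. Sln, sarcolipin, an inhibitor of the calcium pump of the sarcoplasmic reticulum, stood at 2.59, 6.70, 2.77, 4.44 and 3.20 FPKM in the controls and at 6.76, 3.85, 169, 402 and 227 FPKM in the injured muscles (log2 difference 3.80, SE 0.81, adjusted p = 0.0062). Krt8, keratin 8, was at 0 to 0.0449 FPKM in the controls and at 0.314, 0, 4.78, 12.6 and 7.89 FPKM in the injured muscles (log2 difference 3.95, SE 0.68, adjusted p = 0.000581). Its filament partner Krt18 rose from 0.0202 to 0.0905 FPKM in the controls to 7.92, 22.5 and 11.9 FPKM in animals 3, 4 and 5 (log2 difference 4.0, SE 0.79, adjusted p = 0.00324), with 0.211 and 0.0373 FPKM in animals 1 and 2. Both keratins, which belong to simple epithelia and other immature cells, were above the controls in animal 1 and not in animal 2.

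Few genes of the myogenic list were called. MyoD, myogenin and their relatives bind E-boxes in the promoters of muscle genes, and Mdfi encodes I-mfa, which holds them back. Mdfi (chromosome 17, 47952277 to 47971640 in mm9) stood at 0.106, 0.115, 0.106, 0.137 and 0.213 FPKM in the controls and at 0.329, 0.161, 5.89, 4.98 and 5.64 FPKM in the injured muscles, where animal 2 overlapped the controls. It rose by a log2 difference of 2.96 (SE 0.53, adjusted p = 0.000769). Tmem8c, which encodes myomaker, the membrane protein of myoblast fusion, rose from 0.0206 to 0.0720 FPKM in the controls to 3.69, 5.40 and 3.34 FPKM in animals 3, 4 and 5 (log2 difference 2.95, SE 0.60, adjusted p = 0.00381), with 0.0869 and 0.0221 FPKM in animals 1 and 2. Gm7325, listed by RefSeq as the gene of myomerger, the partner of myomaker in fusion, was listed at 0 in 4 controls and at 0.0563 FPKM in the fifth, and at 0.0843, 0.0372, 2.18, 4.50 and 2.49 FPKM in the injured muscles (log2 difference 3.08, SE 0.60, adjusted p = 0.00277). Both fusion genes thus stood above 2 FPKM in animals 3, 4 and 5 and below 0.1 FPKM in every other library. Myog, myogenin, had 0.888 to 1.55 FPKM in the controls and 1.80, 0.803, 9.17, 11.1 and 7.91 FPKM in the injured muscles and missed the threshold (log2 difference 1.73, SE 0.54, adjusted p = 0.0674, and 0.0169 with the block). Mdfi and Tmem8c were the 2 calls, and Myog the third with the block, of 17 myogenic genes of the list tested, whose median was 0.16. Pax7, the transcription factor of satellite cells, was below the minimum for the test, at 0.221 to 0.386 FPKM in the controls and 0.147, 0.217, 0.786, 0.812 and 1.12 FPKM in the injured muscles.

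The acetylcholine receptor and its synapse partners, which spread over the whole membrane of a fiber that lacks a nerve contact and gather at the synapse of an innervated one, were the other part of the muscle program that differed. Chrna1, the alpha subunit (chromosome 2, 73401338 to 73418395 in mm9), stood at 2.52, 1.28, 1.36, 1.21 and 2.005 FPKM in the controls and at 1.99, 2.34, 6.43, 9.05 and 5.91 FPKM in the injured muscles. Animals 1 and 2 overlapped the controls, and Chrna1 rose by a log2 difference of 1.40 (SE 0.35, adjusted p = 0.0205). Chrnd, the delta subunit, and Ncam1, an adhesion molecule of immature and denervated fibers, rose by log2 differences of 1.22 and 1.23 (adjusted p = 0.0488 and 0.0238). Chrnb1, the beta subunit, had a log2 difference of 0.68 (adjusted p = 0.14). Chrng, the fetal gamma subunit, was too low for the test, at 0 to 0.0699 FPKM in the controls and 0.117, 0.0259, 0.848, 1.33 and 0.741 FPKM in the injured muscles. Of 12 genes of this list tested, 3 were called higher, with and without the block.

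Promoters were looked up for 13 genes, and 9 were matched. The 13 include Mybph and the called members of the developmental sarcomere and acetylcholine receptor lists. Chrnd and Ncam1 of the receptor list had no window. The 4 shown here were chosen with their E-boxes known, to span windows with none to 3. They are RefSeq windows in GRCm38.p6, from 250 bases before to 50 after the annotated start, on the strand of the gene, with each E-box (CANNTG, the same on both strands) in capitals.
Mybph, chr1:134193198-134193497, plus strand: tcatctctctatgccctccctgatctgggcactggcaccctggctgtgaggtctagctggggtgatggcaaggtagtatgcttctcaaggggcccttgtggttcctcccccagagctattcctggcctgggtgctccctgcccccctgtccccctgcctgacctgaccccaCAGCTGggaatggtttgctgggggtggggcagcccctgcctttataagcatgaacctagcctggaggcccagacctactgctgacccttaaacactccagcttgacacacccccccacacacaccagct
Actc1, chr2:114052826-114053125, minus strand: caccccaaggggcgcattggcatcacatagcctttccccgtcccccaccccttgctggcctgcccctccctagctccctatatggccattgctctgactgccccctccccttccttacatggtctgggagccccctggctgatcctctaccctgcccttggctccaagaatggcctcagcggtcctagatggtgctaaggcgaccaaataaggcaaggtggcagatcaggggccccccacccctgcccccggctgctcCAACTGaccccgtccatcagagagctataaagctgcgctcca
Chrna1, chr2:73580289-73580588, minus strand: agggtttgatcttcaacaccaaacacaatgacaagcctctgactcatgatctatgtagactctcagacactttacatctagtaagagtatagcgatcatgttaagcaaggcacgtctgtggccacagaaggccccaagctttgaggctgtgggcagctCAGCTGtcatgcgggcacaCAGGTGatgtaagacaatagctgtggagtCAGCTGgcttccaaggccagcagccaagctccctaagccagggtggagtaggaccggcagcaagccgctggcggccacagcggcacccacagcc
Myl4, chr11:104550413-104550712, plus strand: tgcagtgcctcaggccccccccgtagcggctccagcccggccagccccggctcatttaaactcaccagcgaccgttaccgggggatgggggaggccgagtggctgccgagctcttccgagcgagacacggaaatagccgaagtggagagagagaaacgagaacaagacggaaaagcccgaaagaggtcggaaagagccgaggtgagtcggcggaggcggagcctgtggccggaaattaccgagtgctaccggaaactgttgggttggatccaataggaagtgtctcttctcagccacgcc
The Mybph window holds 1 E-box, starting at -79 from the start site, and it is of the form CAGCTG. Chrna1 holds 3, at -92, -73 and -44, of which the outer ones are CAGCTG. The window of Actc1 holds 1, after the start site, and a match to the CArG box, the motif of serum response factor. The Myl4 window holds none and no CArG box. The windows of Ankrd1 and Myh3 hold 1 E-box each, at -111 and -191, and no CArG box. E2f2 has 2 windows with 2 E-boxes each, and Pak1 has 2 windows with 4 and 0, all without a CArG box. Of 32851 windows of this length, 72.3% hold at least 1 E-box and 17.6% at least 3, 16.3% hold CAGCTG and 1.63% a CArG box. A match describes letters in these windows and shows no binding.

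Imprinted growth genes are expressed from a single parental allele and active in fetal and regenerating muscle. Of 16 genes tested from the list of the IGF axis and imprinted growth genes, 7 were called higher, and 9 with the block. H19, a noncoding RNA beside Igf2 (chromosome 7, 149761437 to 149764051 in mm9), stood at 78.7, 120, 100, 78.0 and 71.4 FPKM in the controls and at 458, 91.0, 383, 427 and 350 FPKM in the injured muscles. Animal 1 was the highest of all and animal 2 lay within the controls. H19 rose by a log2 difference of 1.76 (SE 0.31, adjusted p = 0.000737). Igf2, the growth factor next to it, was different in animal 1, with 1.47 to 2.47 FPKM in the controls and 2.14, 1.44, 20.9, 26.1 and 16.3 FPKM in the injured muscles (log2 difference 1.96, SE 0.41, adjusted p = 0.00555). So H19 and Igf2 were both high in animals 3, 4 and 5, and in animal 1 only H19 left the control range.

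Mest, which encodes a membrane protein of the hydrolase family, had the tightest controls, 1.04, 1.09, 1.09, 1.06 and 0.977 FPKM, and stood at 3.23, 0.995, 21.8, 24.5 and 15.6 FPKM in the injured muscles (log2 difference 2.78, SE 0.49, adjusted p = 0.000717). Dlk1, a Notch-like ligand of fetal tissue, and Meg3, a noncoding RNA of the same imprinted region, rose by log2 differences of 2.44 (SE 0.49, adjusted p = 0.00372) and 1.98 (SE 0.52, adjusted p = 0.0292). Plagl1, a zinc finger factor, and Cdkn1c, the cell cycle inhibitor p57, rose by 2.63 (SE 0.54, adjusted p = 0.00381) and 1.36 (SE 0.36, adjusted p = 0.0296). For these 4 genes animals 3, 4 and 5 were above all controls. Peg3, an imprinted zinc finger gene, was above the controls in animal 2 as well. It stood at 2.49 to 4.84 FPKM in the controls and at 5.32, 11.1, 12.6, 13.2 and 13.1 FPKM in the injured muscles, which did not overlap, but it was not called (log2 difference 1.44, SE 0.58, adjusted p = 0.178).

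Cell cycle genes were mostly low, and it was here that animal 1 stood with animals 3, 4 and 5 most plainly. Of 18 members of the list 5 reached the minimum level, and 1 was called higher, 2 with the block. Aurka went the other way and was not called (log2 difference -0.54, adjusted p = 0.242 by limma). It stood at 1.82 to 4.02 FPKM in the controls and at 1.87, 2.40, 1.65, 1.88 and 2.22 FPKM in the injured muscles. Pcna, the member with the highest mean, was not called either (log2 difference 0.40, adjusted p = 0.466). Rrm2, a subunit of the enzyme that makes deoxyribonucleotides, rose from 0.175 to 0.313 FPKM in the controls to 0.698, 0.247, 1.56, 1.62 and 1.68 FPKM (log2 difference 1.60, SE 0.42, adjusted p = 0.0286). Mcm6, part of the replicative helicase, had 0.413 to 0.572 FPKM and 1.197, 0.452, 1.61, 1.79 and 1.63 FPKM (log2 difference 1.12, adjusted p = 0.104, and 0.0353 with the block). Among the members too low for the test, Mki67, the Ki-67 antigen of dividing cells, stood at 0.0307 to 0.0694 FPKM in the controls and at 0.624, 0.0559, 0.599, 0.562 and 0.569 FPKM in the injured muscles. Top2a, the topoisomerase of mitosis, stood at 0.0107 to 0.0571 FPKM and at 0.737, 0.00882, 0.581, 0.566 and 0.439 FPKM. For both, animal 1 was the highest injured muscle and animal 2 was no higher than the controls. Of the 18 members, 15, 2, 16, 16 and 17 were above all 5 controls in animals 1 to 5, and 0, 4, 1, 0 and 0 below. Of the 9 macrophage markers 1, 1, 9, 9 and 9 were above, and of the 14 collagen genes 0, 0, 13, 14 and 14. Over all genes tested the share above was 19.6%, 14.1%, 47.7%, 46.1% and 59%. In animal 1, then, most cell cycle genes were above the controls and 1 macrophage marker and no collagen gene was, and this rests on 1 mouse.

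The genes of the mature fiber showed no call. Of 18 adult fast fiber genes, 9 slow fiber genes, 20 subunits of oxidative phosphorylation, 15 glycolytic genes, 12 genes of atrophy and autophagy and 16 clock and immediate early genes tested, none was called in either direction, with or without the block. The same held for 17 Notch and Wnt genes, and of 16 genes of TGF-beta, activin and BMP signaling none was called, and 2 with the block. These signaling lists still differed between mice, as did the genes at large. Over all genes tested, 19.6%, 14.1%, 47.7%, 46.1% and 59% were above all controls in animals 1 to 5. Of 22 Notch and Wnt genes in the table, 1, 1, 15, 15 and 17 were above all controls in animals 1 to 5, and 10, 5, 0, 2 and 2 below. Of 19 genes of the TGF-beta list, 1, 0, 13, 12 and 14 were above all controls, and 9, 2, 1, 2 and 2 below. The share of all genes below the controls was not counted for single animals, so the counts below have no background. Myh2, the myosin heavy chain of fast oxidative fibers, ran from 72.8 to 160 FPKM in the controls and from 39.0 to 107 FPKM in the injured muscles (log2 difference -0.70, SE 0.50, adjusted p = 0.583). Mylpf, of the adult fast fiber list, stood at 12545 to 17465 FPKM in the controls. Its injured muscles had 18214, 13291, 24575, 30806 and 33987 FPKM (log2 difference 0.63, adjusted p = 0.944 by limma). The SE of Mylpf and of the fiber marker Myh4 was 2.06 and 2.67 in this fit. From the 10 libraries alone it was 0.237 and 0.170. For both genes the fit could not call a 2-fold difference, so a missing call says little. For genes high in animals 3, 4 and 5 the SE could differ the other way. From the 10 libraries alone it was 1.11 for Postn, 1.06 for Tmem8c and 0.75 for Mest. In the fit reported it was 0.69, 0.60 and 0.49. For Cd68 it was 0.58 from the 10 libraries alone and 0.67 in the fit reported. Fbxo32, the ubiquitin ligase atrogin-1, stood at 27.4 to 44.2 FPKM and at 28.5, 45.2, 16.1, 14.4 and 12.4 FPKM (log2 difference -0.70, SE 0.43, adjusted p = 0.474). Animals 3, 4 and 5 lay below every control for Fbxo32, and animals 1 and 2 did not. Map1lc3a, an autophagosome protein, passed the adjusted p (0.0488) at a log2 difference of 0.85, under the 2-fold minimum.

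Slow fiber genes varied widely between mice. Myl2, the slow and cardiac regulatory light chain, stood at 78.1, 4.45, 15.6, 24.5 and 122 FPKM in the controls and at 0.3, 18.9, 19.2, 15.7 and 13.0 FPKM in the injured muscles (log2 difference -1.82, SE 1.26, adjusted p = 0.558). Its levels differ even between uninjured legs. Myh7, the slow myosin heavy chain, stood at 5.18, 0.184, 0.206, 1.19 and 4.54 FPKM and at 0.0629, 0.214, 0.686, 0.186 and 0.224 FPKM (log2 difference -1.90, SE 1.04, adjusted p = 0.387). The control legs of animals 1 and 5 were high in both genes, and the injured leg of animal 1 was the lowest of all 10 muscles in both. Uqcrc2, a core subunit of respiratory complex III, was in animal 1 at 650 FPKM in the injured and 383 FPKM in the control muscle, and in the other injured muscles at 373 to 471 FPKM (log2 difference 0.23, adjusted p = 0.489).

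The heat map of lists by animal sums up these groups. Medians above 2 in each of animals 3, 4 and 5 were those of the macrophage, phagocytosis, class II, collagen and matricellular lists. In animal 1 the medians of slow fiber and tendon markers were lowest, at -2.59 and -2.47. In animal 2 most lists stayed near 0, and adipocyte markers had the lowest median, -1.88.

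**Figure D4:**
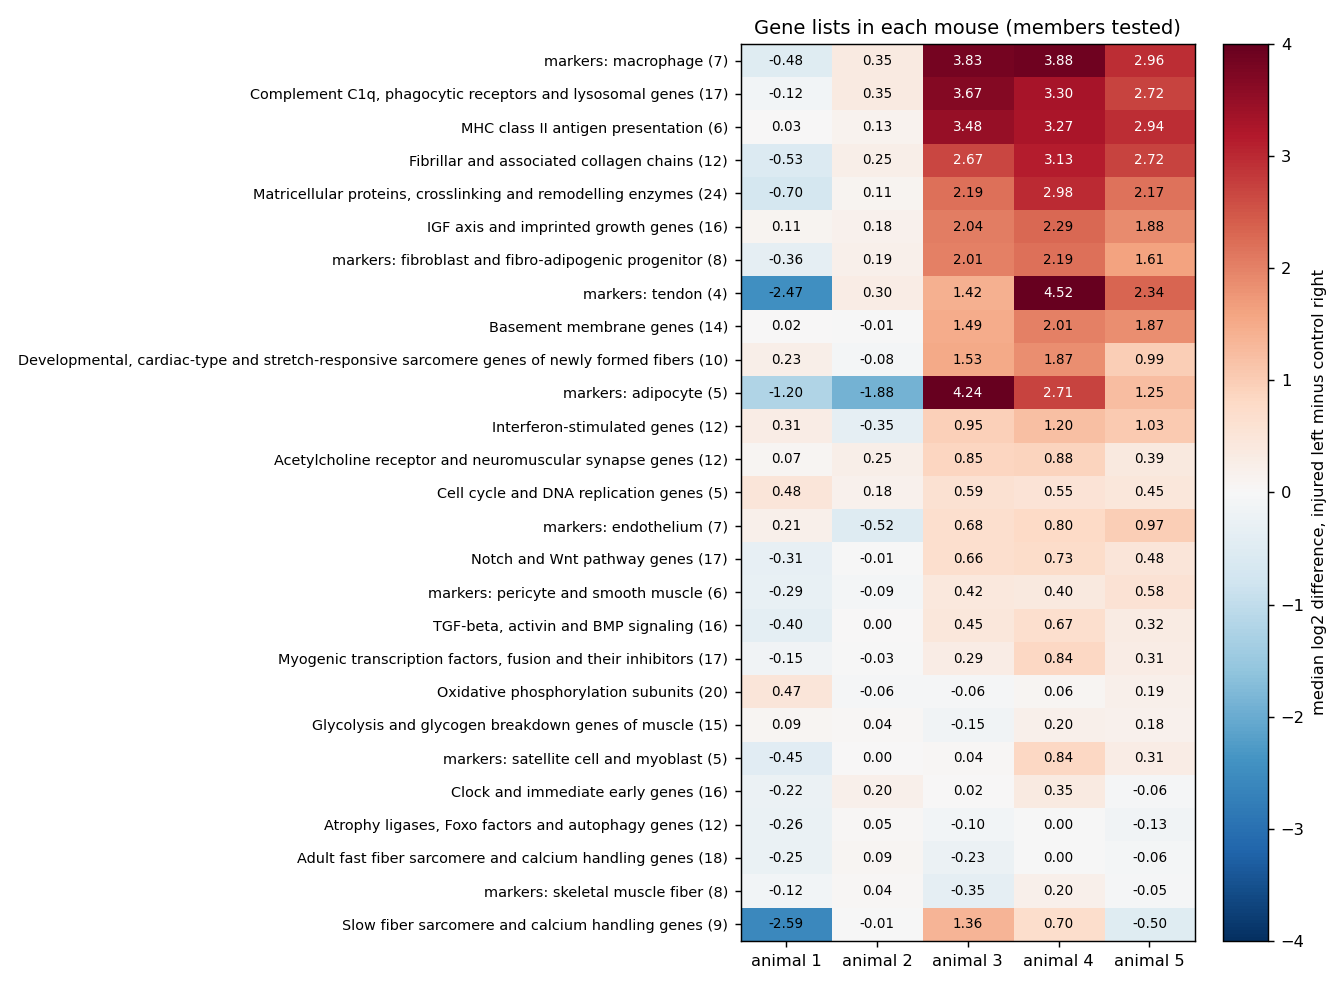
Heat map of the median log2 difference, injured minus control leg of the same mouse, for each gene list with at least 4 tested members (lines) in animals 1 to 5 (columns). Macrophage markers have medians of -0.48, 0.35, 3.83, 3.88 and 2.96 and oxidative phosphorylation stays between -0.06 and 0.47.

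A few genes differed the same way in every mouse, animals 1 and 2 included. At least 1.5-fold higher in all 5 were 12 genes (0.118% of those tested), and 2 (0.0196%) were at least 1.5-fold lower. The higher ones were Rrad, Mybph, Pcbd1, AB124611, Mt2, 2410137F16Rik, 2610524H06Rik, E2f2, Ly96, Atf3, Pak1 and Rsph1, and the lower ones Rasd2 and 1700001O22Rik. They were listed after their values were seen, so their being on 1 side is the way they were found.

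Mybph encodes myosin-binding protein H, a partner of the thick filament (chromosome 1, 136090025 to 136097809 in mm9). It stood at 1.36, 2.67, 3.61, 9.62 and 4.58 FPKM in the controls and at 19.9, 5.91, 29.2, 35.1 and 22.9 FPKM in the injured muscles. Each injured muscle was above its own control by at least 2-fold, though that of animal 2 was below the control of animal 4. Mybph rose by a log2 difference of 2.41 (SE 0.49, adjusted p = 0.00372), and the call was lost without the injured library of animal 4 (adjusted p = 0.0641). E2f2, a transcription factor of the entry into S phase (chromosome 4, 135728309 to 135751971 in mm9), stood at 0.470, 0.405, 0.484, 0.530 and 0.488 FPKM in the controls and at 1.82, 0.741, 1.74, 1.86 and 1.74 FPKM in the injured muscles. The groups did not overlap, and E2f2 rose by 1.48 (SE 0.28, adjusted p = 0.00175).

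Pak1, a kinase of the actin cytoskeleton, was a more abundant transcript of the same kind. It stood at 5.87 to 8.38 FPKM in the controls and at 17.1, 9.71, 14.7, 15.1 and 18.9 FPKM in the injured muscles, with no overlap (log2 difference 1.01, SE 0.24, adjusted p = 0.0172). 2410137F16Rik, a gene with no name beyond its clone, stood at 0.176 to 0.436 FPKM in the controls and at 1.58, 0.849, 1.203, 1.16 and 1.08 FPKM in the injured muscles, with no overlap (log2 difference 1.70, SE 0.45, adjusted p = 0.0301). Atf3, a stress factor, was far higher in animal 1 than in the others, with 7.59, 1.38, 2.602, 1.82 and 1.71 FPKM in the injured muscles and 0.867 to 1.69 FPKM in the controls (log2 difference 1.06, adjusted p = 0.408).

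1700001O22Rik was 1 of the 2 genes called lower, and the only one that was at least 2-fold lower in all 5 mice (chromosome 2, 30651083 to 30659184 in mm9). It stood at 6.204, 3.16, 5.54, 3.64 and 6.07 FPKM in the controls and at 0.821, 1.12, 0.984, 0.385 and 1.62 FPKM in the injured muscles, with no overlap and no gap between animals 1 and 2 and the others. It fell by 2.27 on the log2 scale (SE 0.54, adjusted p = 0.0168, and 0.00262 with the block). Without the injured library of animal 3 or 4 the adjusted p was 0.0703 and 0.15. It was also called lower at 28 days (log2 difference -2.50, adjusted p = 0.0363). Rasd2, a small GTPase, had a like pattern and was not called, with 2.27 to 3.89 FPKM in the controls and 1.43, 1.04, 1.07, 0.414 and 0.906 FPKM in the injured muscles (log2 difference -1.53, SE 0.49, adjusted p = 0.0761, and 0.0203 with the block).

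The promoter windows of 1700001O22Rik are given because it was the gene called lower whose groups did not overlap. RefSeq lists 2 starts for it in GRCm38.p6, and the windows are printed as those of Mybph, with E-boxes in capitals.
1700001O22Rik, chr2:30803615-30803914, minus strand: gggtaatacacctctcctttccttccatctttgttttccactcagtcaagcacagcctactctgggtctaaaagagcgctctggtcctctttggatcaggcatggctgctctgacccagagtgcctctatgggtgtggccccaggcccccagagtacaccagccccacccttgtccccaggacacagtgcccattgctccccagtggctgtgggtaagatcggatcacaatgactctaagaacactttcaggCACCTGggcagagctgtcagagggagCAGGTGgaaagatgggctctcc
1700001O22Rik, chr2:30801688-30801987, minus strand: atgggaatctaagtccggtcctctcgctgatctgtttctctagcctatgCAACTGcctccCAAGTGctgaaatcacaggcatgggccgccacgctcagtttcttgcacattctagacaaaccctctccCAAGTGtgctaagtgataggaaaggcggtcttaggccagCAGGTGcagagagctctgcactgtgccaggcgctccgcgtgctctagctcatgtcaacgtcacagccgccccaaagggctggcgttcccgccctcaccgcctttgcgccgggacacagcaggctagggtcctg
The windows hold 2 and 4 E-boxes, none of the form CAGCTG, and no CArG box. At least 2 E-boxes stand in 39.6% of all windows and at least 4 in 6.49%.

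The other gene called lower, Nrep, does not describe the tissue in this way. In animals 3 and 5 the injured muscle was listed at 0, and Nrep stood at 108, 95.8 and 130 FPKM in those of animals 1, 2 and 4, beside 61.0 to 122 FPKM in the controls. Without the injured library of animal 3 or 5 its adjusted p was 0.348 and 0.368.

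Between animal 2 and animals 1, 3, 4 and 5 a further set of genes divided. Prnd, which encodes doppel, a relative of the prion protein, stood at 0.213 to 1.13 FPKM in the controls and at 4.11, 0.668, 7.52, 8.05 and 6.43 FPKM in the injured muscles (log2 difference 2.75, SE 0.53, adjusted p = 0.00277). Thrsp, a regulator of fatty acid synthesis, stood at 6.09 to 11.2 FPKM and at 29.1, 4.56, 31.5, 32.9 and 43.9 FPKM (log2 difference 1.43, SE 0.33, adjusted p = 0.0151). In both genes animal 1 was high and animal 2 was not. Apln, a peptide that acts on endothelium, and its receptor gene Aplnr rose by log2 differences of 1.62 (SE 0.40, adjusted p = 0.0199) and 1.33 (SE 0.37, adjusted p = 0.0452), with 1.48 and 5.04 FPKM in animal 1 and 0.767 and 1.55 FPKM in animal 2.

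The 162 genes called higher were read in each mouse. Of them 38 (23.5%), 4 (2.47%), 162, 161 and 161 were at least 2-fold higher in animals 1 to 5, with median log2 differences of 0.44, 0.11, 2.58, 2.89 and 2.36. These values come from the libraries that chose the genes and are a description.

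The number of genes called at 14 days stood between those of 7 and 21 days, in groups of unlike size. At 7 days 1520 (14.9%) of the same 10192 genes were called higher, and 153 of the 162 were among them, with a median difference of 2.77. At 21 days 1 gene (0.00981%) was called higher, and at 28 days 2 (0.0196%) were called higher and 3 (0.0294%) lower. Mdfi was the gene called at 7, 14, 21 and 28 days, with log2 differences of 5.33, 2.96, 3.23 and 2.93 (adjusted p = 1.29e-08, 0.000769, 0.0429 and 0.00701). The median difference of the 162 was 1.11 at 21 days and 0.73 at 28 days. These genes were chosen by their values at 14 days, which favors lower medians at other times.

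The change of the difference between times was tested as well. No gene was called for 14 against 7 days (0%) or for 14 against 21 days (0%) by limma, where 761 and 29 genes had an unadjusted p under 0.05 and the lowest adjusted p was 0.0857 and 0.999. The gene at 0.0857 was Myh3, with a log2 difference of 4.86 at 7 days and 1.75 at 14 days. H19 had 3.84 and 1.76 (adjusted p = 0.321 for the change), Myl4 5.0 and 2.06 (adjusted p = 0.321) and Postn 7.13 and 3.49 (adjusted p = 0.448). A lower level at 14 than at 7 days was thus seen in the means of these genes and was not beyond their spread after adjustment.

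The medians of several lists were lower at each later time. Macrophage markers had medians of 4.57, 2.22, 1.77 and 1.08 at 7, 14, 21 and 28 days, imprinted and IGF genes 2.23, 1.28, 0.78 and 0.47, developmental sarcomere genes 1.87, 0.91, 0.72 and 0.31 and collagens 2.50, 1.64, 1.09 and 0.82. Other lists ran differently. Basement membrane genes had 0.89, 1.03, 0.42 and 0.26, tendon markers 0.90, 1.11, 0.38 and 0.80 and slow fiber genes 1.40, -0.28, 0.30 and -0.08. Adult fast fiber genes had -0.84, -0.05, -0.53 and -0.13. All genes tested had 0.21, 0.14, 0.01 and -0.04. The medians carry no test, and those of 14 days average mice as unlike as animals 2 and 4.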

How the data were processed

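Polyadenylated RNA of the injured left and uninjured right tibialis anterior was sequenced from mice at 9 time points. The authors made strand-specific libraries, aligned the reads to mm9 with TopHat and deposited FPKM estimated with Cufflinks and Cuffdiff; the study describes leaving out tissues of low RNA integrity, and replicates by their correlation, without naming the libraries. Whether the deposited FPKM carry a further scaling of libraries is not given in the sources used here. Read depth is not known, so no counting interval is given. Isoform FPKM were not used. The labels hold 12 further libraries, which were not analysed here.

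Groups, times and animals came from the labels. FPKM were tested as log2(FPKM + 0.1) with limma 3.58.1 (lmFit, eBayes with trend) in R 4.3.3, in 1 fit of 76 libraries in 18 groups with 58 residual degrees of freedom, for genes with a mean of at least 1 FPKM in either 14-day group. Adjusted p values are Benjamini-Hochberg values of this fit over 10192 genes, and a call needs an adjusted p under 0.05 and a 2-fold difference. A fold change of a low gene is understated by the added 0.1, and SE is the standard error of the log2 difference. The 24 h libraries A and B of animal 3 were averaged for each leg. A control of unknown time was left out. The 7-day injured library of animal 5 was left out after its values were seen, since its values above 0 stop at 334 genes. The fit was tested on simulated data.

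Both legs come from the same mouse. The deviations of the legs of animals 1 to 5 from their group means correlated at 0.082, 0.223, 0.194, 0.02 and 0.51 across genes, and limma's duplicateCorrelation gave a consensus of 0.231. The fit reported has no block, so values with the animal as a block stand beside it where they change a call or a count.

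Members, gene lists and tests were chosen with earlier results of these data known. The rule for named genes takes called genes whose groups do not overlap, the 10 that rose most and the 10 that fell most, and of each list the 3 tested members with the largest difference and the 1 with the highest mean. Symbols of more than 1 locus (764 entries, 259 symbols) and 27 symbols turned into dates are not named. FPKM of genes with near-identical copies depend on how reads were divided and are uncertain. Promoter windows are from RefSeq tables of GRCm38.p6, where 9 of 13 genes looked for were matched. Figures were drawn with matplotlib 3.10.9 in Python 3.11.15.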

Additional observations from a re-analysis of the deposited data

Results flagged for a closer look

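Among the genes named other than Aurka and Pcna, 188 groups of 5 libraries were checked for a single library far from the other 4 (Dixon's ratio above 0.71), and 13 were found, where chance alone at 1 in 20 gives 9.4. Among the injured muscles, E2f2 was lowest in animal 2 at 0.741 FPKM, Myh7 highest in animal 3 at 0.686 FPKM, Fmod highest in animal 5 at 65.0 FPKM, Atf3 highest in animal 1 at 7.59 FPKM and Peg3 lowest in animal 1 at 5.32 FPKM. E2f2 and Peg3 stood apart within their group and still lay above every control. Among the control muscles, Rrad was highest in animal 1 at 1.10 FPKM, Mdfi in animal 5 at 0.213 FPKM, Nkg7 in animal 1 at 0.0689 FPKM, Gm7325 in animal 5 at 0.0563 FPKM, Atf3 in animal 3 at 1.69 FPKM and Apln in animal 2 at 1.13 FPKM. Ccl8 and Irf7 were lowest in the control of animal 2, at 0.0822 and 0.740 FPKM. The check does not see 2 libraries that stand apart together, as animals 1 and 2 do in many genes.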

How the results depend on the processing

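Of the genes called at 14 days, 164 in all (162 higher, 2 lower), the number moved with the fit. A pseudocount of 1 gave 101 (98 higher) and one of 0.01 gave 109 (107 higher). A minimum mean of 5 FPKM gave 34 (33 higher, 1 lower) and no minimum 438 (434 higher, 4 lower). Quantile normalization gave 13 lower genes and upper-quartile scaling 10. All control groups as comparator gave 932 (921 higher, 11 lower), library weights 1238 (1200 higher, 38 lower), though the estimate of the weights stopped before it converged, and an adjusted p under 0.1 gave 348 (343 higher, 5 lower). With the incomplete 7-day library kept, 7 were called (7 higher, 0 lower). The 10 libraries alone gave 0 (0 higher, 0 lower), and 0 (0 higher, 0 lower) with the replicate block. The replicate block over 18 groups gave 451 (445 higher, 6 lower). Genes above 1 FPKM in any of 18 groups, a setting added after the data were seen, gave 354 (350 higher, 4 lower). Leaving out 1 library gave 10 to 787 calls (9 to 773 higher, 0 to 14 lower). The change from 7 to 14 days, with 0 genes called, had 10 with a pseudocount of 1, 179 with no minimum, 3 with quantile normalization, 1 with the replicate block, 274 with library weights, 4 with all controls and 38 with genes of any group. That from 14 to 21 days had 398 with library weights. Both were 0 in every fit without 1 of the 10 libraries. Neither change was fitted to the 10 libraries alone. No called gene named here changed direction in these fits. Among genes not called, S100a8 went from 0.45 to -0.45 with all controls as comparator. Myh4, at -0.23 in the fit reported, ran from -0.42 to 2.70 over these fits, and Mef2c from -0.14 to 0.17. The block made 11 named genes pass and none fail.

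Quantile normalization and upper-quartile scaling moved the median of all genes from 0.137 to -0.0559 and -0.0476. The medians of the glycolysis, oxidative phosphorylation, myogenic, TGF-beta, satellite cell, pericyte, skin and erythroid lists changed sign under them.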
